A study of Mus musculus with 14 samples.

Results

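The CC and CXC chemokines described here are 10 of the 56748 genes in the deposited expression table: Ccl2, Ccl3, Ccl4, Ccl5, Ccl6, Ccl7, Ccl8, Cxcl1, Cxcl10 and Cxcl12. They were taken by gene name, and the list was chosen with earlier results of these data known, so comparisons with all genes are a description. RNA sequencing of whole ovaries was deposited for female wild-type C57BL/6J mice that received dextran sulfate sodium (DSS), a polymer that inflames the colon, and for control mice. The 14 libraries form 4 groups: DSS at day 7 (replicates 75, 80, 81 and 82), control at day 7 (replicates 10, 51 and 53), DSS at day 89 (replicates R29, R38, R78 and R89) and control at day 89 (replicates R123, R124 and R126). Day 7 is the end of the colitis model and day 89 follows a long rest. The labels give no DSS dose, and they do not say whether each library came from its own mouse, so the tests measure the spread between libraries, which may be partly technical.

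Chemokines are small secreted proteins that guide leukocytes along concentration gradients by binding receptors on their surface. Some, such as Ccl2 and Cxcl1, are made in bursts by macrophages, endothelium and stroma when inflammatory signals reach them, while Cxcl12 is made steadily by stromal cells and holds cells in place. In the ovary, chemokines are known for bringing leukocytes to the follicle at ovulation and to the regressing corpus luteum.

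Depth was 15256018 to 18505144 reads per library, recovered from the FPKM values (fragments per kilobase of gene length, scaled to depth). The labels name the tissue as ovary while their extract protocol speaks of retinas: luteal cell markers summed to between 1960 and 3027 FPKM in DSS libraries at day 7, whereas no marker on the retina list passed 7.22 FPKM in any library. Replicate 75 of DSS and replicates 10 and 53 of control, all at day 7, stood apart with 9.96% to 14.2% of their reads from mitochondrial genes, against 0.479% to 4.04% in the other 11. Marker sums of other cells differed between DSS and control at day 7, and the part of these cells in the chemokine results was not tested. The 17 monocyte and macrophage markers summed to 479 to 653 FPKM in DSS libraries and 273 to 353 FPKM in control libraries, the 11 neutrophil markers to 13.2 to 132 FPKM in DSS and 2.90 to 4.10 FPKM in control, and the 7 erythrocyte markers to 410 to 726 FPKM in DSS and 49.9 to 310 FPKM in control. The 8 oocyte markers summed to 255 to 410 FPKM in DSS and 112 to 223 FPKM in control, the 8 B and plasma cell markers to 17.5 to 28.0 FPKM in DSS and 10.1 to 15.96 FPKM in control, and the 5 mast cell markers to 2.11 to 3.31 FPKM in DSS and 3.54 to 5.10 FPKM in control. None of the tested markers on these lists had an adjusted p under 0.05 with limma at day 7. Hdc led the mast cell sum in every day 7 library. Without Hdc the mast cell sums overlapped, at 0.459 to 1.58 FPKM in DSS and 1.22 to 2.03 FPKM in control. The leading B and plasma cell marker was Ighm or Igkc, depending on the library, so sums without it were not compared. Stromal, endothelial and luteal marker sums overlapped between DSS and control at day 7. Of the 8 luteal markers, 6 had a log2 difference below 0 and 2 above, with a median of -1.02. None of them had an adjusted p under 0.05. Hsd3b1 led the luteal sum in every day 7 library. Without Hsd3b1 the luteal sums were 1075 to 1207 FPKM in control. DSS replicate 75 lay among these with 1182 FPKM, and the other DSS libraries lay lower, at 295 to 516 FPKM. The part of luteal cells in the chemokine results was not tested. In whole-ovary RNA, a change in the number of cells of a type and a change in RNA per cell cannot be told apart.

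The 10 genes lie on chromosomes 5, 6 and 11 of the mouse genome (GRCm38, GENCODE M21 positions looked up by gene ID). Ccl2 (chr11:82035571-82037453, plus strand), Ccl7 (chr11:82045712-82047525, plus) and Ccl8 (chr11:82115185-82116799, plus) lie in a row with Ccl11 and Ccl12 between Ccl7 and Ccl8. Ccl5 (chr11:83525778-83530518, minus), Ccl6 (chr11:83587882-83593087, minus), Ccl3 (chr11:83647844-83649355, minus) and Ccl4 (chr11:83662584-83664683, plus) follow on the same chromosome, with Ccl9 between Ccl5 and Ccl6. Cxcl1 (chr5:90891241-90893115, plus) and Cxcl10 (chr5:92346638-92348889, minus) share chromosome 5, and Cxcl12 (chr6:117168535-117181367, plus) stands alone on chromosome 6. Ccl2, Ccl7 and Ccl12 resemble each other in sequence, as do Ccl3 and Ccl4, and how the authors counted reads that match several genes remains unknown (not given in the sources used here).

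Promoter sequences are shown for the 3 members whose DSS libraries lay above every control library at day 7, Ccl6, Ccl8 and Cxcl1, and for Cxcl10, whose groups did not separate. Each is the 250 bases before the gene start, read 5′ to 3′ on the gene's strand, from RefSeq on GRCm38.p6. They cover chr11:83593088-83593337 (minus strand) for Ccl6, chr11:82114935-82115184 (plus) for Ccl8, chr5:90890995-90891244 (plus) for Cxcl1 and chr5:92348890-92349139 (minus) for Cxcl10. Capitals mark matches to the motifs searched.
Ccl6: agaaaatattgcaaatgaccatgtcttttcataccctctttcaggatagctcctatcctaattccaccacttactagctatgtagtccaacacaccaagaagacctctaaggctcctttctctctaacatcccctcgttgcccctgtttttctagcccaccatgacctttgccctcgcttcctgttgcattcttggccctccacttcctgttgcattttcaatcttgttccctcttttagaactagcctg
Ccl8: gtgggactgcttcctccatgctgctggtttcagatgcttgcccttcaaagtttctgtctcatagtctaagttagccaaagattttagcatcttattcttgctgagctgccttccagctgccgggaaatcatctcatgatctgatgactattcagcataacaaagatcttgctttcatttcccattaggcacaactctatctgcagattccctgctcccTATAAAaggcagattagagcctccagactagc
Cxcl1: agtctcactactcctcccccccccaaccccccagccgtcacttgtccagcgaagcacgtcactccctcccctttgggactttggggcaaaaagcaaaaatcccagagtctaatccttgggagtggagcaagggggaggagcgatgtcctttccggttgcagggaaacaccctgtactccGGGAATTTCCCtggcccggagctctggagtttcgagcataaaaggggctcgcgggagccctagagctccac
Cxcl10: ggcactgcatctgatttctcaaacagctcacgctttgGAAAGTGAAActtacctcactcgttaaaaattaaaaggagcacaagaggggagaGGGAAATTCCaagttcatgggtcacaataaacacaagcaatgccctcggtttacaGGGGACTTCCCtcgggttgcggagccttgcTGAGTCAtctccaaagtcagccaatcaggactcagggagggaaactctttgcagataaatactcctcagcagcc
Motifs were searched on both strands: NF-kB, the site of the Rel family of inflammatory transcription factors, the interferon-stimulated response element (ISRE) core (GAAA, any 2 bases, GAAA), AP-1 (TGANTCA), the TATA box (TATAAA) and the STAT site GAS (TTC, any 3 bases, GAA). In the Cxcl10 window the capitals are an ISRE core 213 to 204 bases upstream, an NF-kB match 159 to 150 bases upstream, a pair of overlapping NF-kB matches between 104 and 94 bases upstream, and an AP-1 match 74 to 68 bases upstream. Cxcl1 held overlapping NF-kB matches on opposite strands, 71 to 62 and 70 to 61 bases upstream, and Ccl8 held a TATA box 32 to 27 bases upstream. The Ccl6 window held none of the 5 motifs, nor did those of Ccl3 and Cxcl12, the other members in the promoter table, which covers 6 of the 10. Among 32536 mouse promoters of the same length, 7.28% held an NF-kB match, 2.98% an ISRE core, 6.73% an AP-1 match, 12.3% a TATA box and 7.04% a GAS match. A match is a string of letters, not a site shown to be bound.

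At day 7, Ccl8, Ccl6 and Cxcl1 stood higher in every DSS ovary library than in every control library, Ccl2 stood higher in 3 of 4, and the other members overlapped. No member passed the threshold, an adjusted p under 0.05 over the 18006 genes tested with limma on log2(FPKM + 1). Over all genes tested 0.0333% passed (6 genes), and at an unadjusted p under 0.05 the count was 4 of the 10 members, against 16% of all genes; limma's voom on the recovered reads also called 0 members. The counts without overlap were 3 of 10 members higher, where 6.24% of all genes tested were, and 0 members lower, where 5.87% were. The median log2 difference, DSS minus control, was 0.33 over the 10 members and 0.00 over all genes. Leaving out DSS replicate 75 alone brought Ccl2, Ccl8 and Cxcl1 past the threshold and raised the count over all genes to 1220.

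**Figure D1:**
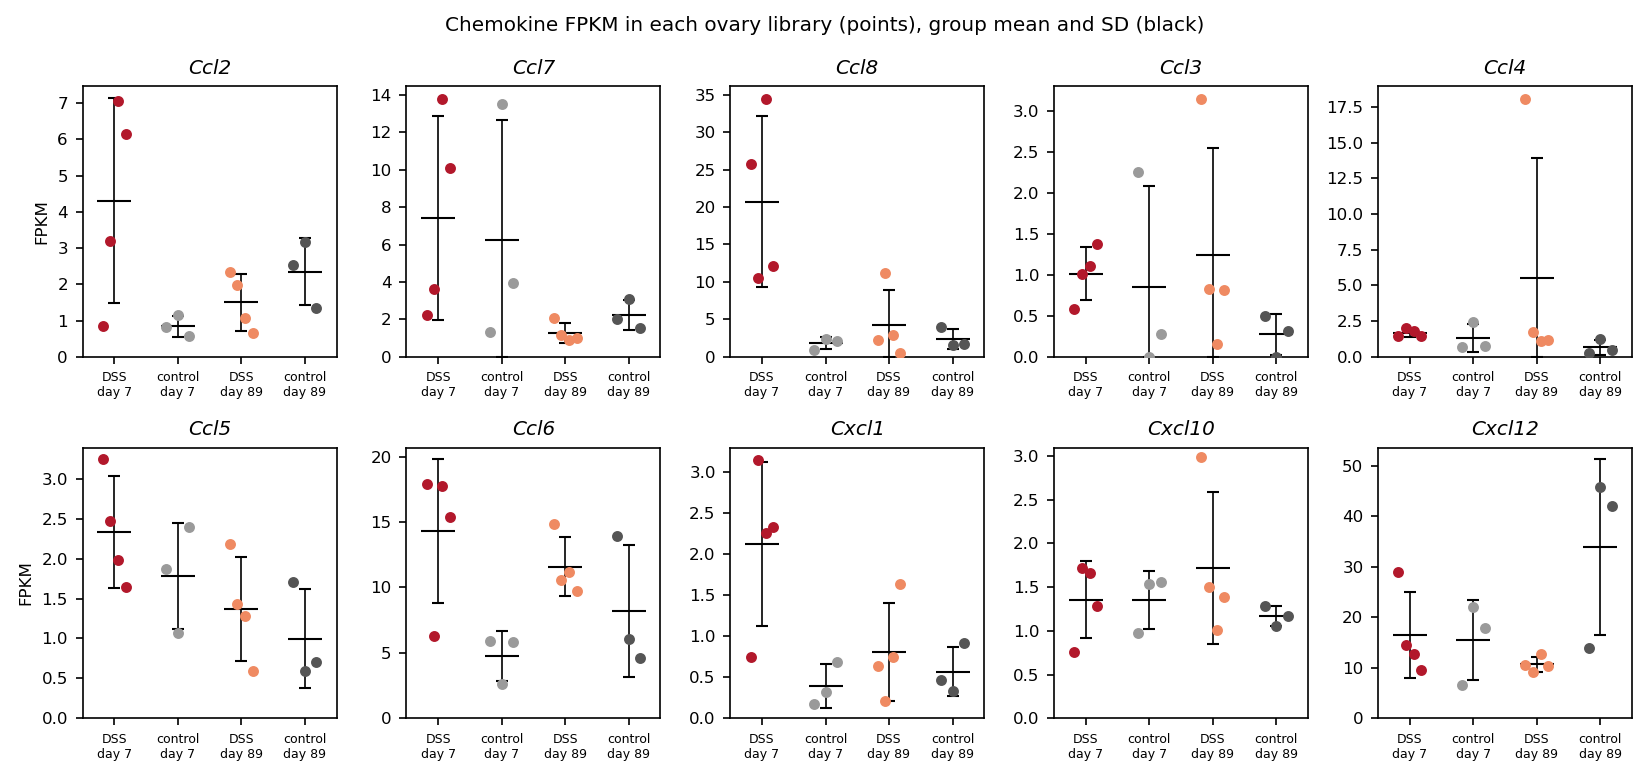
FPKM of each of the 10 chemokines (vertical axis, linear, with its own range in each panel) in single libraries, with DSS left of control at day 7 and at day 89; points are libraries, the black line is the group mean and the bar is the SD, which is drawn no lower than 0. Ccl8, Ccl6 and Cxcl1 show no overlap at day 7, and Cxcl12 shows none at day 89.

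Ccl2 and Ccl7 are ligands of Ccr2, the receptor that brings monocytes out of the blood. Ccl2 measured 0.848, 3.20, 7.06 and 6.14 FPKM in DSS replicates 75, 80, 81 and 82, against 0.819, 1.14 and 0.567 FPKM in control replicates 10, 51 and 53. DSS replicate 75 lay among the controls and the other 3 lay above them. The means were 4.31 ± 2.84 FPKM in DSS and 0.842 ± 0.287 FPKM in control (SD, n = 4 and 3), a ratio of 5.12, and the log2 difference was 1.33 (SE 0.42, adjusted p = 0.169). Without replicate 75 the log2 difference was 1.77 with an adjusted p of 0.0111, and over all 15 alternatives run the adjusted p lay between 0.0111 and 0.365.

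Ccl7, the neighbour of Ccl2, measured 2.22, 3.65, 13.8 and 10.1 FPKM in DSS replicates 75, 80, 81 and 82, against 1.33, 13.5 and 3.94 FPKM in control replicates 10, 51 and 53. Control replicate 51 was nearly as high as the highest DSS library, so the groups overlapped throughout. The log2 difference was 0.35 (SE 0.56, 95% interval -0.86 to 1.57, adjusted p = 0.794), and it was -0.67 when the 3 libraries of high mitochondrial share were left out, which leaves 1 control library. Over the 14 libraries Ccl2 and Ccl7 had a Pearson correlation of 0.57, and of 0.72 after each group's mean was taken out. These points share library, depth and possibly reads, so the correlation is a description only.

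Ccl8 in mice is known as a ligand of Ccr8, a receptor of T helper 2 cells, and is made largely by macrophages. It measured 25.7, 10.6, 34.4 and 12.1 FPKM in DSS replicates 75, 80, 81 and 82, from 98 to 333 reads. In control replicates 10, 51 and 53 it measured 0.912, 2.43 and 2.11 FPKM, from 7 to 23 reads. Every DSS library lay above every control library, with the 2 groups well apart.

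The Ccl8 means were 20.7 ± 11.4 FPKM in DSS and 1.82 ± 0.801 FPKM in control (SD, n = 4 and 3), a ratio of 11.4. Its log2 difference of 2.83 (SE 0.57, 95% interval 1.62 to 4.05) was the largest of the 10 members and had an unadjusted p of 0.000204 and an adjusted p of 0.0814. The adjusted p lay between 0.0266, without DSS replicate 75, and 0.195 over the 15 alternatives, in which the log2 difference stayed between 2.35 and 3.47. Within the 3 libraries of high mitochondrial share, 1 DSS and 2 control, the DSS minus control difference of mean log2 values was 3.45, and within the other 4 libraries of day 7 it was 2.35.

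Ccl6, a rodent chemokine of myeloid cells that acts through Ccr1, measured 17.9, 6.26, 17.7 and 15.4 FPKM in DSS replicates 75, 80, 81 and 82, against 5.93, 2.59 and 5.84 FPKM in control replicates 10, 51 and 53. The groups did not overlap, but DSS replicate 80 was close to the upper 2 controls. The means were 14.3 ± 5.50 FPKM in DSS and 4.79 ± 1.90 FPKM in control (SD, n = 4 and 3). The log2 difference was 1.37 (SE 0.38, 95% interval 0.56 to 2.18, adjusted p = 0.135), it was 1.46 among the high-mitochondrial libraries and 1.86 among the rest of day 7, and no alternative run brought it past the threshold.

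Ccl3, Ccl4 and Ccl5 draw macrophages and effector T cells to inflamed tissue. Ccl3 rested on few reads: it measured 0.581, 1.01, 1.10 and 1.37 FPKM in DSS replicates 75, 80, 81 and 82 (6 to 20 reads) and 2.26, 0 and 0.281 FPKM in control replicates 10, 51 and 53 (26, 0 and 3 reads). Control replicate 10 exceeded every DSS library and replicate 51 held no read, and the log2 difference was 0.31 (SE 0.41, adjusted p = 0.75). Ccl4 measured 1.46, 2.005, 1.84 and 1.43 FPKM in DSS replicates 75, 80, 81 and 82, against 0.706, 2.46 and 0.761 FPKM in control replicates 10, 51 and 53. Its log2 difference was 0.29 (SE 0.60, adjusted p = 0.842), with control replicate 51 above every DSS library. Ccl5, a product of T and NK cells among others, measured 3.25, 2.47, 1.98 and 1.64 FPKM in DSS replicates 75, 80, 81 and 82 and 1.87, 1.07 and 2.39 FPKM in control replicates 10, 51 and 53, with a log2 difference of 0.27 (SE 0.26, adjusted p = 0.651). For all 3 the 95% interval included 0, and its upper end was 1.19 for Ccl3, 1.57 for Ccl4 and 0.84 for Ccl5 on the log2 scale.

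Cxcl1 attracts neutrophils through Cxcr2. It measured 0.752, 3.15, 2.25 and 2.32 FPKM in DSS replicates 75, 80, 81 and 82, against 0.177, 0.317 and 0.689 FPKM in control replicates 10, 51 and 53. DSS replicate 75 was only just above control replicate 53, and both have a high mitochondrial share. The means were 2.12 ± 0.997 FPKM in DSS and 0.395 ± 0.264 FPKM in control (SD, n = 4 and 3), a ratio of 5.37 that the log2(FPKM + 1) scale compresses to 1.11 (SE 0.29, adjusted p = 0.123). Without DSS replicate 75 the log2 difference was 1.37 with an adjusted p of 0.0127, in a range of 0.0127 to 0.315 over 15 alternatives. The difference was 0.31 among the high-mitochondrial libraries and 1.43 among the rest of day 7.

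Cxcl10, an interferon-induced ligand of Cxcr3 that draws activated T and NK cells, measured 0.758, 1.71, 1.67 and 1.28 FPKM in DSS replicates 75, 80, 81 and 82, against 0.975, 1.54 and 1.56 FPKM in control replicates 10, 51 and 53. The group means were equal to the precision printed, 1.36 ± 0.442 FPKM in DSS and 1.36 ± 0.331 FPKM in control (SD, n = 4 and 3). The log2 difference was -0.01 (95% interval -0.49 to 0.46, adjusted p = 0.988). Across 25 interferon response genes the summed level was 169 to 203 FPKM in DSS libraries and 276 to 315 FPKM in control libraries at day 7, and 4 of the 25 had a log2 difference above 0 and 21 below 0, none past the threshold.

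Cxcl12, the stromal ligand of Cxcr4, was the best covered member, with 815 to 3334 reads per library at day 7. It measured 29.01, 14.5, 12.8 and 9.64 FPKM in DSS replicates 75, 80, 81 and 82, against 6.63, 22.1 and 17.8 FPKM in control replicates 10, 51 and 53. The groups overlapped, with a log2 difference of 0.12 (SE 0.44, adjusted p = 0.923) that was 1.33 among the high-mitochondrial libraries and -0.81 among the rest of day 7.

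**Figure D2:**
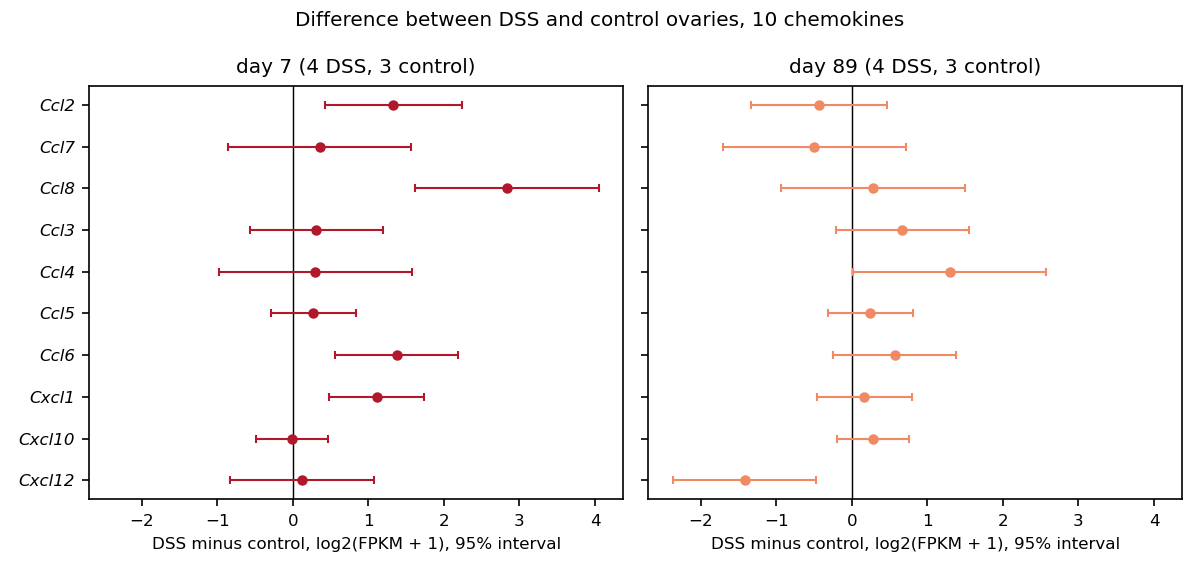
Log2 difference in FPKM + 1 (horizontal axis, DSS minus control) of each chemokine at day 7 and at day 89; points are limma estimates and bars are 95% intervals. At day 7 the intervals of Ccl8, Ccl6, Ccl2 and Cxcl1 lie above 0, at day 89 that of Ccl4 lies just above 0 and that of Cxcl12 below 0, and none passed after adjustment over all genes.

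At day 89, Cxcl12 stood lower in every DSS library than in every control library, Ccl4 was high in a single DSS library, and Ccl8 and Cxcl1 overlapped between DSS and control. No member passed limma's threshold, where 0.00555% of all genes (1 gene) did. At an unadjusted p under 0.05 the count was 2 of 10 members (Cxcl12 and Ccl4), where 4.58% of all genes tested stood, and voom called 0. Without overlap, 0 members were higher, where 4.04% of all genes were, and 1 member was lower, where 4.25% were. The median log2 difference was 0.26 over the members, 7 above 0 and 3 below.

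Cxcl12 measured 10.5, 9.17, 12.7 and 10.3 FPKM in DSS replicates R29, R38, R78 and R89, against 13.9, 45.8 and 42.1 FPKM in control replicates R123, R124 and R126. The 4 DSS libraries lay close together, and control replicate R123 lay nearer to them than to the other 2 controls. The means were 10.7 ± 1.48 FPKM in DSS and 34.0 ± 17.4 FPKM in control (SD, n = 4 and 3), a ratio of 0.315. The log2 difference was -1.42 (SE 0.44, 95% interval -2.37 to -0.47, unadjusted p = 0.00643, adjusted p = 0.924), and it lay between -1.95 and -1.13 when single libraries were left out. The 7 stromal markers summed to 368 to 532 FPKM in DSS and 395 to 698 FPKM in control libraries, overlapping, and their part in the Cxcl12 difference was not tested.

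Ccl4 measured 18.1, 1.74, 1.11 and 1.20 FPKM in DSS replicates R29, R38, R78 and R89, against 0.248, 1.28 and 0.462 FPKM in control replicates R123, R124 and R126. Replicate R29 lay far above the rest, and R38 also lay above every control library. The log2 difference was 1.29 (SE 0.60, adjusted p = 0.924) and was 0.54 without R29. Replicate R29 also had the highest Ccl3 of the group, with 3.15, 0.825, 0.160 and 0.812 FPKM in DSS replicates R29, R38, R78 and R89, against 0.499, 0 and 0.319 FPKM in control replicates R123, R124 and R126. The Ccl3 log2 difference was 0.67 (SE 0.41, adjusted p = 0.924), from no more than 38 reads in any library. The same replicate had the highest T and NK cell marker sum at day 89, 9.90 FPKM. Its B and plasma cell marker sum was 56.4 FPKM, against 51.3 FPKM in R38. Those sums were 20.2 to 56.4 FPKM in DSS and 8.58 to 9.92 FPKM in control at day 89, so they were higher across the DSS group. Monocyte and macrophage markers summed to 934 FPKM in R29 and 1081 FPKM in R38. The part of these cells in the Ccl4 and Ccl3 values was not tested. Replicate R29 also held 17.9 FPKM of Itgax, an integrin of dendritic cells and macrophages, which was its leading dendritic cell marker. Zbtb46 led in every other day 89 library, so sums without the leading marker cover different genes and were not compared. The 8 dendritic cell markers summed to 26.0 FPKM in R29 and to 9.60 to 13.0 FPKM in the other day 89 libraries.

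Ccl8 measured 2.23, 11.1, 2.87 and 0.554 FPKM in DSS replicates R29, R38, R78 and R89, against 3.96, 1.55 and 1.67 FPKM in control replicates R123, R124 and R126. Only replicate R38 exceeded the controls, and the log2 difference of 0.28 (SE 0.57, adjusted p = 0.97) was -0.26 without it. Ccl6 measured 14.8, 10.6, 11.2 and 9.71 FPKM in DSS replicates R29, R38, R78 and R89, against 13.9, 6.07 and 4.63 FPKM in control replicates R123, R124 and R126. Its log2 difference was 0.57 (SE 0.38, adjusted p = 0.924), with control replicate R123 among the DSS libraries.

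Ccl2 and Ccl7 lay on the lower side in DSS at day 89. Ccl2 measured 2.34, 1.97, 1.08 and 0.646 FPKM in DSS replicates R29, R38, R78 and R89, against 2.55, 3.17 and 1.34 FPKM in control replicates R123, R124 and R126, with a log2 difference of -0.43 (SE 0.42, adjusted p = 0.932). Ccl7 measured 2.06, 1.15, 0.917 and 0.989 FPKM in DSS replicates R29, R38, R78 and R89, against 2.05, 3.10 and 1.52 FPKM in control replicates R123, R124 and R126, with a log2 difference of -0.50 (SE 0.56, adjusted p = 0.943). In both genes the groups overlapped.

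Cxcl1 measured 0.643, 0.215, 0.751 and 1.63 FPKM in DSS replicates R29, R38, R78 and R89, against 0.466, 0.331 and 0.912 FPKM in control replicates R123, R124 and R126, and its log2 difference was 0.17 (SE 0.29, 95% interval -0.46 to 0.80). Cxcl10 measured 2.98, 1.51, 1.01 and 1.38 FPKM in the DSS libraries in the same order, against 1.29, 1.05 and 1.17 FPKM in the control libraries, and its log2 difference was 0.28 (SE 0.22, 95% interval -0.19 to 0.75). Ccl5 measured 2.18, 1.44, 1.28 and 0.589 FPKM in DSS and 1.71, 0.588 and 0.699 FPKM in control, with a log2 difference of 0.25 (SE 0.26, 95% interval -0.32 to 0.81). Cxcl10, like Ccl4, was highest in replicate R29. Over the 14 libraries Ccl4 and Cxcl10 had the highest Pearson correlation of any 2 members, 0.79. Their rank correlation (Spearman), on which a single high library weighs less, was 0.58, below the 0.69 of Ccl6 and Ccl8. The adjusted p was 0.965 for Cxcl1, 0.924 for Cxcl10 and 0.942 for Ccl5.

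Between the times in DSS ovaries, day 89 against day 7, limma called 2 of 10 members, Ccl8 and Ccl7, both lower. This is near the share of all genes tested, of which 21.4% were called in either direction, and the Ccl7 call was lost in 8 of 16 alternatives. No member changed past the threshold in control ovaries, where Ccl7 was also lower on average at day 89. The DSS change did not differ from the control change past the threshold for either gene (limma, adjusted p = 0.517 for Ccl8 and 0.768 for Ccl7). Ccl8 averaged 4.20 ± 4.73 FPKM at day 89 and 20.7 ± 11.4 FPKM at day 7 (SD, n = 4 each), with a log2 difference of -2.31 (SE 0.52, adjusted p = 0.00969). It remained past the threshold in all 16 alternatives run, with adjusted p values of 0.00113 to 0.0353, although replicate R38 at day 89 lay above replicate 80 at day 7. Cell markers also moved between the times in DSS: neutrophil markers summed to 4.53 to 7.09 FPKM at day 89 and 13.2 to 132 FPKM at day 7, oocyte markers to 52.0 to 156 FPKM at day 89 and 255 to 410 FPKM at day 7, and luteal markers to 3425 to 5835 FPKM at day 89 and 1960 to 3027 FPKM at day 7. Stromal markers (368 to 532 FPKM at day 89, 237 to 316 FPKM at day 7) and mast cell markers (4.94 to 7.45 FPKM at day 89, 2.11 to 3.31 FPKM at day 7) did not overlap either. Without Hsd3b1, which led the luteal sum in every DSS library, the luteal sums overlapped, at 976 to 2154 FPKM at day 89 and 295 to 1182 FPKM at day 7. The part of these cells in the Ccl8 and Ccl7 changes was not tested.

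Ccl7 averaged 1.28 ± 0.529 FPKM at day 89 and 7.44 ± 5.44 FPKM at day 7 in DSS ovaries (SD, n = 4 each), with a log2 difference of -1.65 (SE 0.52, adjusted p = 0.0382). It was the 1 member lower without overlap, where 12.7% of all genes tested were, and 0 members were higher, where 12.2% were. The Ccl7 call was lost in 8 of 16 alternatives, among them voom (-2.22, adjusted p = 0.0706), no filter on low values (adjusted p = 0.0896) and leaving out DSS replicate 81, 82, R29, R38, R78 or R89, and its adjusted p ranged from 0.003 to 0.108. Cxcl1 averaged 0.809 ± 0.594 FPKM at day 89 and 2.12 ± 0.997 FPKM at day 7, with a log2 difference of -0.77 (SE 0.27, adjusted p = 0.0561). Ccl2 averaged 1.51 ± 0.782 FPKM at day 89 and 4.31 ± 2.84 FPKM at day 7, with a log2 difference of -0.93 (SE 0.39, adjusted p = 0.101). Without DSS replicate 75, Cxcl1 and Ccl2 passed as well, with adjusted p values of 0.0143 and 0.0103.

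In control ovaries, day 89 against day 7, limma called 0 of 10 members where it called 31.8% of all genes, 1 member had an unadjusted p under 0.05, where 43.3% of all genes did, and voom called 0 members and 5468 genes. Cxcl12 averaged 34.0 ± 17.4 FPKM at day 89 and 15.5 ± 7.96 FPKM at day 7 (SD, n = 3 each), with a log2 difference of 1.06 (SE 0.47, adjusted p = 0.101) that passed only without replicate R123 (1.59, adjusted p = 0.0228). Ccl2 averaged 2.35 ± 0.931 FPKM at day 89 and 0.842 ± 0.287 FPKM at day 7, with a log2 difference of 0.83 (SE 0.45, adjusted p = 0.17). Ccl7 averaged 2.22 ± 0.802 FPKM at day 89 and 6.26 ± 6.41 FPKM at day 7, with a log2 difference of -0.80 (SE 0.60, adjusted p = 0.325). Day 7 and day 89 libraries also differed in 5732 genes in control, and the labels do not say whether both times were processed together, so time and handling cannot be told apart.

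The question whether the DSS effect itself differed between the days was tested as an interaction. No member and 0% of all genes passed, with 1521 genes, 8.45%, at an unadjusted p under 0.05, and voom called 0 genes. The day 89 minus day 7 difference of the DSS effects was -2.55 for Ccl8 (SE 0.80, unadjusted p = 0.00669, adjusted p = 0.517), -1.76 for Ccl2 (SE 0.60, unadjusted p = 0.0105, adjusted p = 0.528), -1.54 for Cxcl12 (SE 0.63, unadjusted p = 0.028, adjusted p = 0.572) and -0.94 for Cxcl1 (SE 0.41, unadjusted p = 0.0393, adjusted p = 0.574). For Ccl7 the difference of the DSS effects was -0.85 (SE 0.80, unadjusted p = 0.303, adjusted p = 0.768). Over the alternatives the adjusted p for Ccl2 lay between 0.0547 and 0.814.

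The 10 members summed to 71.8 ± 20.7 FPKM in DSS and 34.9 ± 12.8 FPKM in control at day 7, and to 39.9 ± 13.6 FPKM in DSS and 52.8 ± 11.3 FPKM in control at day 89 (SD, n = 4 and 3 at each day). Ccl8 held 19.7% to 36.4% of the sum in DSS libraries at day 7, against 4.22% to 5.86% in control libraries. At day 89, Cxcl12 led in every control library, where it held 34.3%, 72.8% and 76.8% of the sum, while the leading member in DSS was Ccl4 in R29, Ccl8 in R38 and Cxcl12 in R78 and R89.

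**Figure D3:**
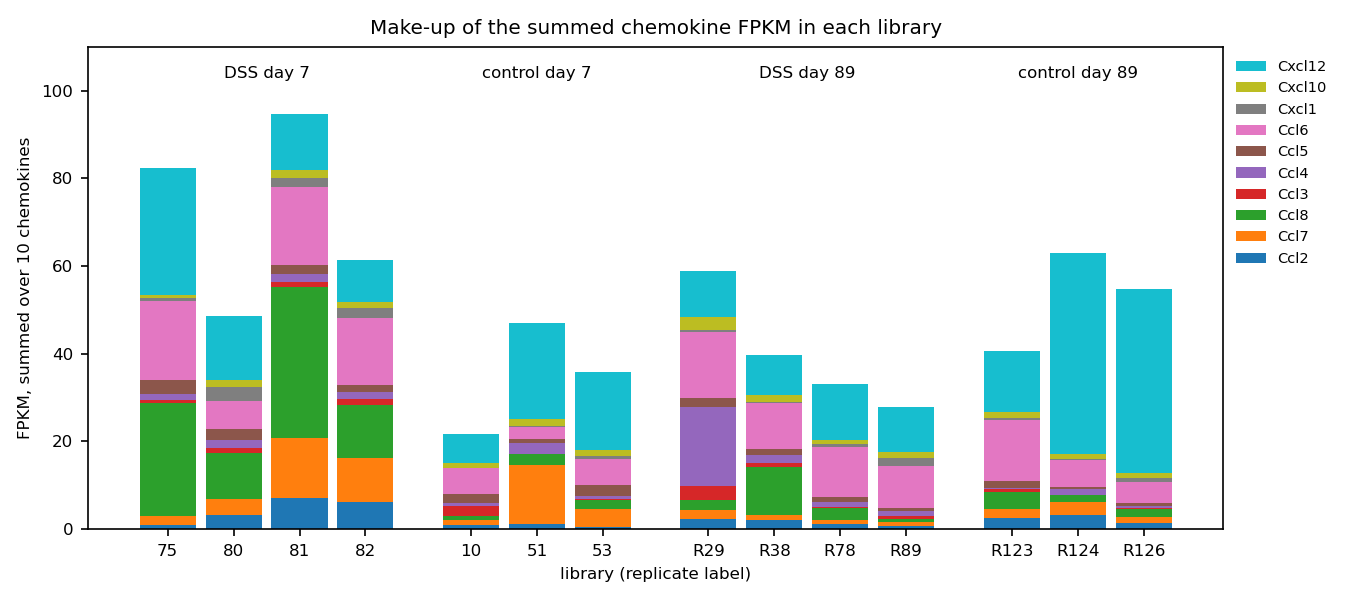
Summed FPKM of the 10 chemokines in each library (vertical axis), stacked by member, with DSS left of control within each day. The Ccl8 share is wide in the 4 DSS libraries of day 7, and Cxcl12 fills most of the bar in control replicates R124 and R126.

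Ordered by mean level per length, Ccl8, Cxcl12 and Ccl6 led in DSS ovaries at day 7 with 20.7, 16.5 and 14.3 FPKM, and no neighbours in that order were separated in all libraries. In control ovaries at day 7, Cxcl12, Ccl7 and Ccl6 led with 15.5, 6.26 and 4.79 FPKM, Cxcl1 was last with 0.395 FPKM, and only Ccl6 lay above its next member, Ccl8, with no overlap. At day 89 Ccl6 and Cxcl12 led in DSS with 11.6 and 10.7 FPKM and no neighbours were separated. In control at day 89, Cxcl12 (34.0 FPKM), Ccl6 (8.21 FPKM) and Ccl8 (2.39 FPKM) followed each other without overlap, as did Ccl7 above Cxcl10, and Ccl3 was last with 0.273 FPKM. All other neighbours in the 4 orders overlapped between libraries.

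Other chemokines were measured in the same libraries. There were 29 of them, of which 15 passed the filter, Cxcl13 only through its DSS libraries at day 89. Ccl28 reached 0.5 FPKM in 4 libraries, 2 of them DSS at day 89 and 2 elsewhere, and would not have passed without those DSS libraries. At day 7, 11 of the 15 had a log2 difference above 0 and 4 below, with a median of 0.31 and none past the threshold. The counts and medians of the 15 at both days include Ccl28 and Cxcl13 and are a description. Ccl9, the rodent neighbour of Ccl6, averaged 6.45 ± 2.26 FPKM in DSS and 2.12 ± 0.25 FPKM in control (SD, n = 4 and 3), with a log2 difference of 1.20 (SE 0.30, adjusted p = 0.107) and no overlap. Ccl12, a Ccr2 ligand that sits between Ccl7 and Ccl8, averaged 4.92 ± 2.16 FPKM in DSS and 1.96 ± 0.97 FPKM in control, with a log2 difference of 0.98 (SE 0.34, adjusted p = 0.203). Cx3cl1, the membrane-bound ligand of Cx3cr1, had a log2 difference of 0.45 (SE 0.18, adjusted p = 0.255).

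At day 89, 9 of the 15 lay above 0 and 6 below, with a median of 0.11 and none past the threshold. Cxcl13, which organises B cell follicles, measured 6.78, 0.600, 0.266 and 0.541 FPKM in DSS replicates R29, R38, R78 and R89 and 0.0475, 0.196 and 0.212 FPKM in control replicates R123, R124 and R126. Replicate R29 was again far above the rest. Since Cxcl13 passed the filter only through the DSS group, where 3 libraries reached 0.5 FPKM, these values are a description with no test. Ccl21a, whose near-identical copies make its reads uncertain, had a log2 difference of 0.53 (SE 0.29) and Xcl1 of 0.54 (SE 0.43), both with an adjusted p of 0.924. Between the times Ccl12 fell in DSS, averaging 1.16 ± 0.58 FPKM at day 89 and 4.92 ± 2.16 FPKM at day 7 (log2 difference -1.43, adjusted p = 0.00893). Ccl27a fell in control (-1.17, adjusted p = 0.0127), and of the 15 these were the only calls between times.

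Of 23 chemokine receptors 12 passed the filter. Ackr1 would not have passed without the control libraries of day 7, nor Ccr7 without the DSS libraries of day 7. None passed the threshold at day 7 (5 above 0, 7 below, median -0.15) or at day 89 (8 above 0, 4 below, median 0.08). These counts and medians include Ackr1 and Ccr7 and are a description. Ccr2, the receptor of Ccl2 and Ccl7, had a log2 difference of -0.12 at day 7 (adjusted p = 0.8) and 0.09 at day 89 (adjusted p = 0.973). Ccr1 stood at 0.09 at day 7 and -0.15 at day 89, Cxcr3 at 0.05 and 0.27, and Cxcr4 at -0.52 and 0.07, in log2 difference. Ackr3, which removes Cxcl12, averaged 4.79 FPKM in DSS and 2.53 FPKM in control at day 7 (0.69, adjusted p = 0.354).

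Ackr1, a receptor of venules and red cells that binds many chemokines without signalling, measured 0, 0.0392, 0.150 and 0.299 FPKM in DSS replicates 75, 80, 81 and 82, against 1.42, 0.577 and 0.562 FPKM in control replicates 10, 51 and 53. At day 89 it also reached 0.5 FPKM in control replicate R124 (0.642 FPKM) and DSS replicate R89 (0.765 FPKM). It would not have passed the filter without the 3 control libraries of day 7, so the values are a description with no test. Ccr10 stood at -0.46 (SE 0.17, adjusted p = 0.215) at day 7, Ackr2, a scavenger of CC chemokines, at 0.19 (adjusted p = 0.54), and Ccrl2, a non-signalling member of the family, at -0.48 (adjusted p = 0.429). Cx3cr1 stood at 0.54 (SE 0.27, adjusted p = 0.924) at day 89.

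The receptors of Ccl8 and Cxcl1 were near the floor. Ccr8 averaged 0.0117 FPKM in DSS at day 7 and 0.137 FPKM in DSS at day 89, and was listed at 0 in every control library of both days. Cxcr2 measured 0.0862 to 0.414 FPKM in DSS and 0 in each control library at day 7, and neither gene passed the filter, nor did Ccr3. Between the times in DSS, Ccrl2 (1.53, adjusted p = 0.00299), Cxcr6 (0.75, adjusted p = 0.00696) and Ccr10 (0.60, adjusted p = 0.0174) were higher at day 89. Ccr7 averaged 0.229 ± 0.125 FPKM at day 89 and 0.756 ± 0.399 FPKM at day 7 (SD, n = 4 each), a description only, since the day 7 libraries brought it through the filter. In control, Ccrl2 was higher at day 89 (0.90, adjusted p = 0.0392). Of 20 NF-kB and cytokine genes that induce chemokines 11 were tested, and none passed at day 7 or day 89.

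**Figure D4:**
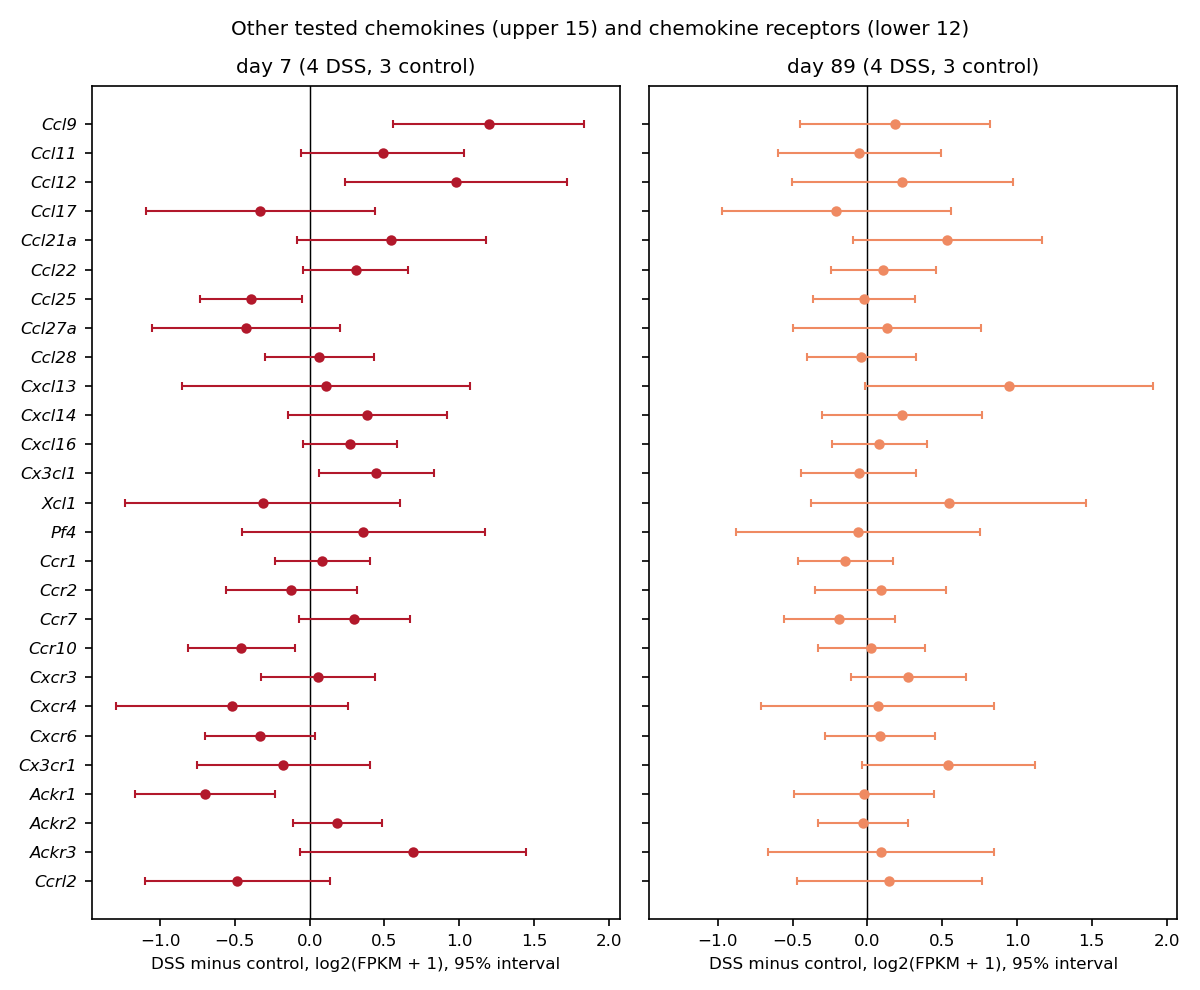
Log2 difference in FPKM + 1 (horizontal axis, DSS minus control) of the 15 other chemokines and 12 chemokine receptors tested, at day 7 and at day 89, with 95% intervals. Ccl9 and Ccl12 lie highest at day 7, and no gene passed after adjustment. Ccl28, Cxcl13, Ccr7 and Ackr1 would not have passed the filter without the libraries of 1 group, so their intervals are a description and not a test.

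The genes whose log2(FPKM + 1) followed each member most closely over the 14 libraries, among 12547 with a mean of at least 1 FPKM, are given as a description, since the libraries share groups and depth. Ccl6 was most like its neighbour Ccl9 (Pearson r = 0.84). Ccl8 was most like Bmp7 (0.93), a growth factor of the TGF-beta family, Rergl (0.86) and Lrg1 (0.85), an acute-phase glycoprotein. Without DSS replicates 81 and 75 these values were 0.88, 0.68 and 0.65. Ccl7 was most like Socs1 (0.88), an inhibitor of cytokine signalling. Ccl4 was most like Nfkbiz (0.95), an NF-kB cofactor, and Fpr2 (0.91), a formyl peptide receptor, but without replicate R29 and control replicate R123 these values were 0.75 and 0.40.

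Cxcl12 was most like Sema3d (0.97), L3mbtl3 (0.96) and Dner (0.95), and its likeness to Sema3d was 0.92 without control replicates R124 and R126. Cxcl1 was most like Pdlim1 (0.94), Nr0b1 (0.94), a repressor of steroidogenic transcription, and Wbp11 (0.92). Cxcl10 was most like Il10ra (0.85), the interleukin 10 receptor, with an r of 0.61 without replicates R29 and 75. The leading genes were Rftn1 for Ccl2 (0.83), Sp140 for Ccl3 (0.83) and Atg7 for Ccl5 (0.86). Among the members themselves, Ccl3 and Cxcl12 ran most nearly opposite, at -0.69.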

How the data were processed

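RNA from 14 ovary samples in 4 groups was sequenced from total RNA libraries, per the labels' protocols. HISAT2 2.0.5 and the GRCm38 build were used, per the submitters' processing notes. Which counter, annotation release and strand setting were used, and how reads with several matches were handled, was not given in the sources used here. The authors deposited FPKM values, so differences were taken on the log2(FPKM + 1) scale, which understates changes of low genes, and limma replaced the count test that a table of counts would have had.

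FPKM times the deposited gene length gave whole reads (within 0.01 of a step, below 300 steps) for 100% of values in every library, 15256018 to 18505144 reads per library. Genes with at least 0.5 FPKM in at least 3 libraries were kept, 18006 of 56748, including all 10 members. Every member also reached 0.5 FPKM in at least 4 libraries outside DSS at day 7. limma 3.58.1 (R 4.3.3, trend) fitted 4 group means to all 14 libraries, with Benjamini-Hochberg adjustment over all genes and a threshold of 0.05. The fit was also run on simulated data as a check of the code only. The simulated data held no libraries of high mitochondrial share, and the outcome is not given here. Means are given with the SD. Positions in the deposited table were mostly offset from GENCODE M21 (1472 of 52073 matched IDs shared a position), so positions come from that annotation.

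Alternatives were a pseudocount of 0.1, no filter, a filter of 1 FPKM, scaling to each library's own read total, voom on recovered reads, fits of the compared libraries only, leaving out or modelling the 3 libraries over 8% mitochondrial reads, and leaving out each library in turn. Every member is named. Listed other genes are named if among the 3 smallest p-values of their list or if they are receptors of a member, and the genes most like a member are the 3 of highest Pearson correlation; of these only some are printed. Receptors and other chemokines called between times were named after their values were seen. The members and gene lists were chosen with earlier results of these data known. Samples were not paired, as groups share no replicate number. The receptor list leaves out 1 gene, which is not reported here.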

Additional observations from a re-analysis of the deposited data

Results flagged for a closer look

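Ccl4 in DSS ovaries at day 89 was the 1 result with a library far from the others of its group. Replicate R29 measured 18.1 FPKM from 188 reads, against 1.74, 1.11 and 1.20 FPKM in replicates R38, R78 and R89, so the gap to the next library took up nearly the whole range of the group. The same replicate was the highest of its group for Ccl3 (3.15 FPKM), Cxcl10 (2.98 FPKM) and Cxcl13 (6.78 FPKM). The check was made on 20 combinations of member and DSS group, and chance flags about 1 in 20 groups. The groups of 3 control libraries were not checked.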

How the results depend on the processing

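No member passed the threshold at day 7 or day 89 under any of the 8 processing alternatives, and of 810 values of members under an alternative 749 kept their direction and their side of the threshold, 14 newly passed it, 8 lost it and 39 changed sign; none that changed sign was past the threshold in the full set. The counts of called genes moved most. At day 7, 6 genes were called, against 2 with a pseudocount of 0.1, 2 with own read totals, 0 with voom, 0 with only the compared libraries, 865 without the libraries of high mitochondrial share, 20 with a term for them, and 0 to 1220 leaving out single libraries (members 0 to 3). At day 89, 1 gene was called, against 5 with no filter, 0 with a pseudocount of 0.1, a filter of 1 FPKM, voom, the compared libraries or without the high mitochondrial libraries, and 0 to 2 leaving out single libraries. In control between times, 5732 genes were called, against 3196 without the high mitochondrial libraries, 3141 with a term and 3713 to 6029 leaving out single libraries; 1 member passed with the compared libraries only (Ccl2), without the high mitochondrial libraries or with a term (Ccl7), and 0 to 1 leaving out single libraries. In DSS between times, single libraries gave 2043 to 4941 genes and 1 to 4 members, no filter and voom gave 1 member (2823 and 3500 genes), and leaving out the high mitochondrial libraries or a term for them gave 4 (3285 and 3583 genes). For the difference of DSS effects, no filter gave 2 genes and single libraries 0 to 41.

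Members without overlap at day 7 were 3 to 5 of 10 higher leaving out single libraries (7.28% to 15.8% of all genes), and 6 higher and 2 lower without the high mitochondrial libraries (38.3% and 37.4% of all genes, with 3 libraries against 1). At day 89 they were 0 to 2 higher (5.92% to 10.5% of all genes) and 1 to 2 lower (5.76% to 11.6%), and in DSS between times 1 to 3 lower (13.4% to 21.3%), 3 without the high mitochondrial libraries (16.3%), so these shares lie near those of all genes at day 89 and between times. These counts without libraries were chosen after seeing the data.

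Signs turned as follows, in log2 difference; the cause was not tested. A pseudocount of 0.1 gave -0.23 for Ccl3 in DSS between times and 0.037 for Ccl5 in the difference of effects, own read totals gave 0.046 for Cxcl10 at day 7, and voom gave 0.053 for Cxcl10 at day 7 and -0.27 for Ccl3 in DSS between times. Without the high mitochondrial libraries, day 7 values were -0.33 for Ccl4, -0.67 for Ccl7, 0.0054 for Cxcl10 and -0.81 for Cxcl12, values between times were 0.33 for Ccl3 and -0.088 for Ccl8 in control and -0.11 for Ccl3 in DSS, and differences of effects were -0.44 for Ccl3 and 0.17 for Ccl7. With a term for them Ccl7 was -0.39 at day 7 and Cxcl1 -0.16 in control between times. Leaving out single libraries spanned, at day 7, -0.27 to 1.05 for Ccl7, -0.37 to 0.43 for Cxcl12, -0.035 to 0.82 for Ccl3 and -0.14 to 0.12 for Cxcl10. At day 89 it spanned -0.26 to 0.72 for Ccl8 and -0.032 to 0.34 for Cxcl1. Between times it spanned -0.70 to 0.15 for Ccl3 and -0.067 to 0.41 for Ccl8 in control, and -0.35 to 0.26 for Ccl3, -0.20 to 0.86 for Ccl4 and -0.021 to 0.31 for Cxcl10 in DSS. For the difference of effects it spanned -0.15 to 0.70 for Ccl3 and -0.18 to 0.22 for Ccl5. Counting error is widest for Ccl2, Ccl3, Ccl4, Ccl8 and Cxcl1, each with fewer than 10 reads in at least 1 library. No paired analysis was possible because no replicate number recurs between groups.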
